A study of Mus musculus with 8 samples.

Results

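Cells chemically modify the bases and riboses of their transfer and ribosomal RNA, and the genes described here encode the enzymes that do so. Gene families were chosen with earlier results of these data known, and the genes within them by name alone. The 76 genes whose symbol belongs to the Pus and Pusl1, Trmt, Nsun, Mettl, Adat, Elp, Thumpd, Qtrt, Ctu or Ftsj1 families were taken. Of these, 71 had at least 1 count and are the members, out of 17625 genes with a count in the table, and 64 of the 71 had enough counts to be tested. They were measured by RNA sequencing in mouse OT-I CD8 T cells, whose transgenic T cell receptor recognises an ovalbumin peptide. Cells activated with the peptide SIINFEKL were grown for 5 days with IL-2, either in RPMI with 10% FBS (4 libraries) or in the same medium with 470 µM o-phosphoethanolamine, called pEtn below (4 libraries). pEtn is the phosphorylated headgroup precursor of phosphatidylethanolamine, and the comparison asks how its presence alters the transcripts of these cells. The labels name no other genotype or agent, and do not say whether the 4 numbered libraries of a medium come from separate mice or cultures, so the p-values measure the spread between these libraries, which may be technical.

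Modifications of the anticodon loop, such as wobble thiolation, inosine and queuosine, tune how a tRNA reads its codons, while those of the tRNA body, such as methylguanosine and pseudouridine, help it fold and protect it from decay. Ribosomal RNA is modified as the ribosome is assembled, mostly by enzymes guided by small nucleolar RNAs and partly by stand-alone methyltransferases. Activated T cells make large amounts of protein as they grow and divide. The names do not map onto a single function. Among the members were 5 genes for enzymes of mRNA or snRNA (Mettl3, Mettl14, Mettl16, Mettl4 and Thumpd2) and 9 for enzymes that methylate proteins, so the label of tRNA and rRNA modification holds for most but not all of the genes taken by name. Mettl5os is an antisense RNA and Mettl4-ps1 a pseudogene.

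Total counts ran from 29223765 to 35504571 per library. The summed level of 4 CD8 T cell markers was 957 to 1252 CPM in RPMI and 1102 to 1495 CPM with pEtn, where CPM stands for counts scaled to library size with TMM factors. B cell and erythroid markers stayed at or under 0.381 CPM in sum, and myeloid and dendritic cell markers at or under 2.44 CPM. Natural killer cell markers summed to 16.1 to 31.5 CPM in RPMI and 5.94 to 33.8 CPM with pEtn. Nearly all of this was Klrb1c, as Ncr1 was at 0 CPM in RPMI and at most 0.0952 CPM with pEtn. Markers of CD4 and regulatory T cells summed to 26.5 to 54.8 CPM in RPMI and 52.4 to 68.3 CPM with pEtn. Of the 3 tested, Zbtb7b, a transcription factor of the CD4 lineage, rose from 20.1 ± 3.86 to 32.2 ± 5.17 CPM without overlap (n = 4, SD; log2 0.68, edgeR adjusted p = 0.0262, and up to 0.0792 on dropping RPMI replicate 3), and Gata3 and Ikzf2 did not pass. Cd4 and Foxp3 had too few counts for the test, with Cd4 averaging 0.317 ± 0.482 CPM in RPMI and 0.124 ± 0.116 CPM with pEtn, and Foxp3 averaging 0.189 ± 0.149 and 0.235 ± 0.143 CPM (SD, n = 4). Replicates 3 and 4 of each medium resembled each other far more than other pairs of a medium did. Same-numbered libraries of the 2 media deviated from their group means together, with correlations across genes of 0.44 to 0.57.

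Of the 64 tested members, 21 fell and 0 rose in edgeR's quasi-likelihood test at an adjusted p under 0.05, against 12.8% of all 11862 genes tested (7.56% lower and 5.22% higher), which is 32.8% of the members, and 43 did not pass the test. The median log2 fold change was -0.27 over the 64 members and 0.02 over all genes tested, and 50 of the 64 had a negative value and 14 a positive one. The 21 that fell were 1.30- to 2.36-fold lower, and each was lower with pEtn in 4 of 4 replicate numbers. The latter adds no support, as the calls came from the same libraries. In 29 of the 64 the 4 pEtn libraries lay below the 4 RPMI libraries without overlap and in 0 above, against 10.6% and 9.74% of all genes tested (20.4% in either direction). In bulk RNA, fewer cells that express a gene and less of its RNA per cell cannot be told apart.

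The number of calls depended on the libraries used. With the replicate number as a block, 28 members fell and 2 rose, against 16.5% and 15.8% of all genes tested. Dropping RPMI replicate 3 left 12 lower (18.8% of the members, against 6.61% of genes called). Dropping RPMI replicate 4 or pEtn replicate 4 left 13 each (20.3%, against 7.15% and 6.79% of genes). Dropping any other library left 15 to 21, against 7.81% to 13.7% of genes called. With replicates 3 and 4 of each medium summed into 1 library 6 were lower (9.38% of the members, against 2.71% of genes). These were Pus7, Trmt61a, Nsun2, Mettl13, Nsun5 and Qtrtd1. With that sum and the replicate block, 23 were lower and 1 higher (37.5% of the members, against 19.4% of genes called). The 21 calls of the main test were kept in that fit. Replicates 1 and 2 alone gave 1 (Pus7, 1.56% of the members, against 0.264% of genes). Replicates 3 and 4 alone gave 31 lower and 4 higher (54.7% of the members, against 48.1% of genes called). Over all genes that fit had 2914 lower and 2761 higher, so the called share of the members was near that of all genes. The size of the shift moved less. The median over the 64 members was -0.32, -0.22, -0.21 and -0.23 in replicate numbers 1 to 4. Over the 21 called members, which were chosen from these same libraries, it was -0.55, -0.50, -0.65 and -0.61. The median of Malat1 and Neat1, nuclear RNAs read as a sign of RNA quality, was -0.06, 0.14, 1.22 and 1.27 in the same order, and that of Zbtb7b and the other CD4 or Treg markers with enough counts was 0.48, 0.01, 0.82 and 0.95. In number 2 Malat1 and Neat1 had opposite signs, at -0.21 and 0.49. The part of RNA quality and of other cell types in the members' values was not tested.

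**Figure D1:**
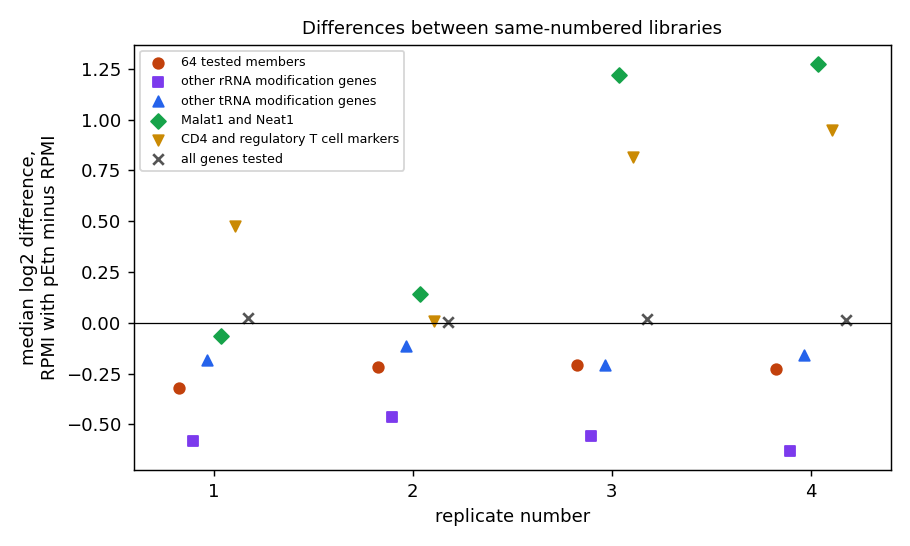
Median log2 difference between the pEtn and the RPMI library of the same replicate number (x axis, 1 to 4), for the 64 tested members, 2 lists of other modification genes, Malat1 with Neat1, 3 markers of CD4 and regulatory T cells and all genes tested. The members lie between -0.32 and -0.21 in each number. Malat1 with Neat1 lie at -0.06 and 0.14 in numbers 1 and 2 and at 1.22 and 1.27 in numbers 3 and 4.

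**Figure D2:**
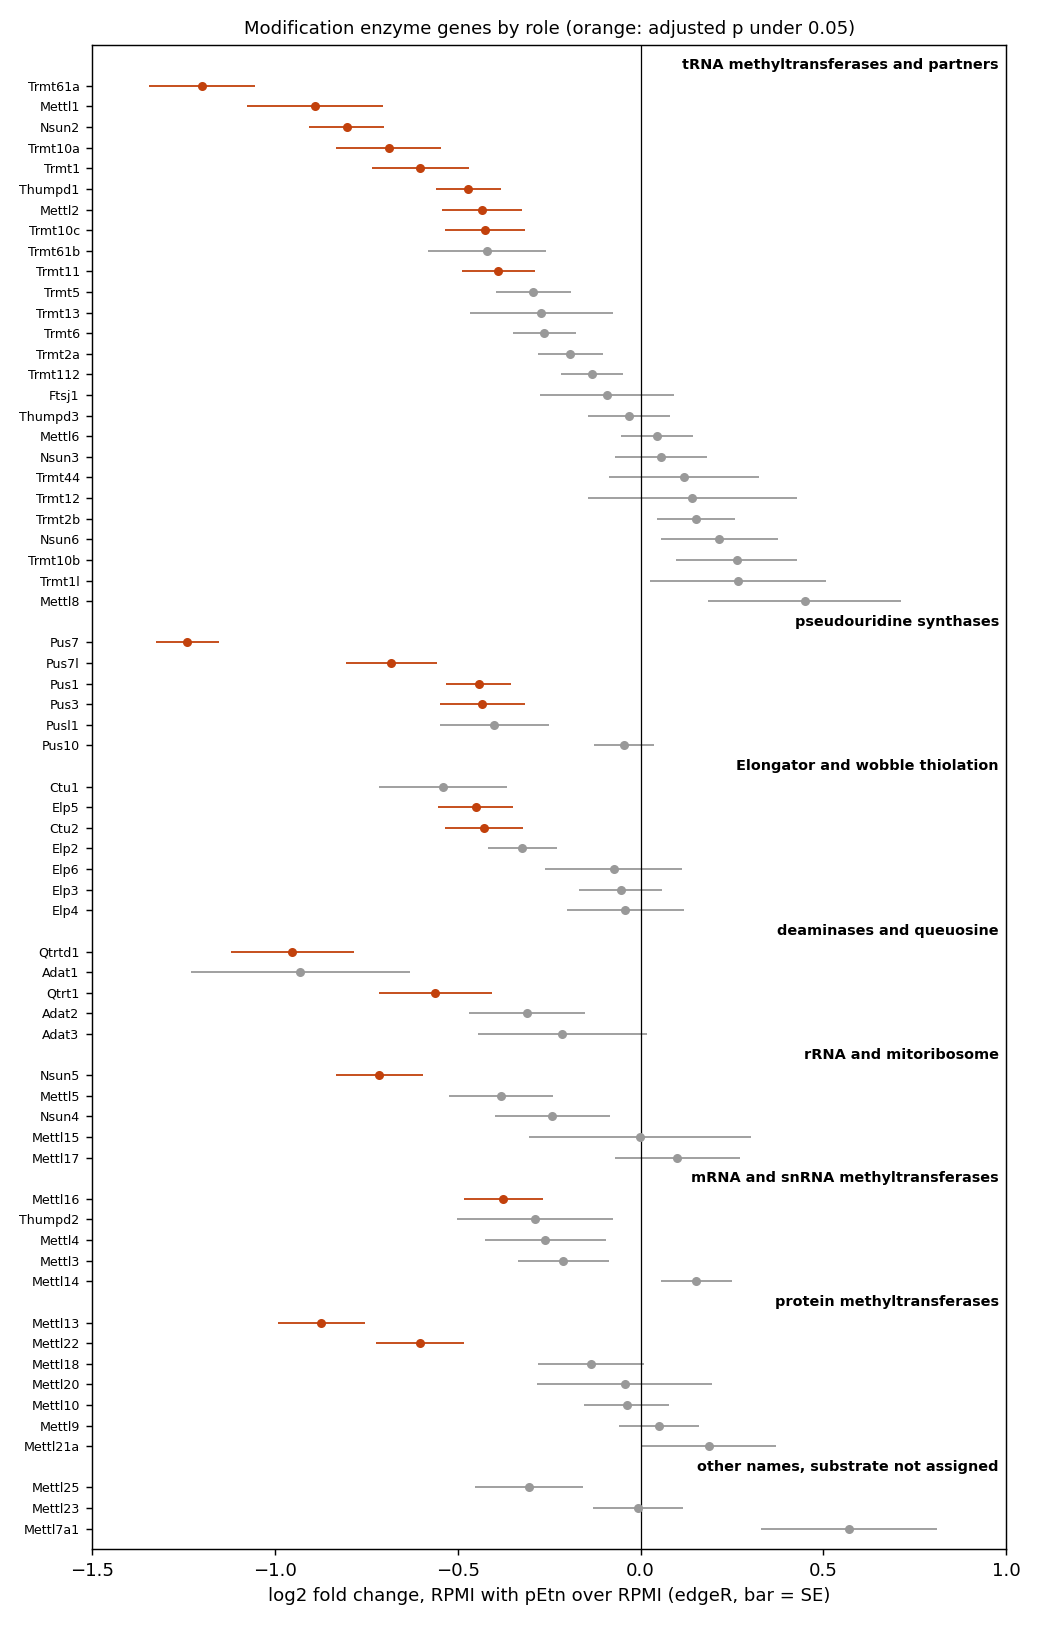
Log2 fold change of each of the 64 tested members (x axis, pEtn over RPMI, edgeR, bars are standard errors). Genes are grouped by assigned role, with partner proteins beside enzymes and a group without an assigned substrate. The 21 orange genes had an adjusted p under 0.05 and lie between -1.24 and -0.38, and no gene to the right of 0 was called.

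Of the 6 pseudouridine synthases, which turn uridine into its C-linked isomer, 4 fell (66.7%, against 7.56% of all genes tested) and 0 rose. This was the largest share of calls among the groups, in a set of only 6 genes. With replicates 3 and 4 summed, Pus7 alone of the 4 stayed called. Pus1, Pus7l and Pus3 then had an edgeR adjusted p of 0.0872, 0.0690 and 0.180. Pus7 (ENSMUSG00000057541), a stand-alone synthase that acts on tRNA and mRNA, stood at 87.6, 76.6, 77.9 and 74.8 CPM in RPMI replicates 1 to 4 and at 34.5, 34.1, 32.1 and 33.5 CPM with pEtn. The media were far apart and the pEtn libraries differed little among themselves. The fall was 2.36-fold (log2 -1.24, SE 0.09, edgeR adjusted p = 0.000188), the largest among the members. Its paralogue Pus7l went from 19.5 ± 1.33 to 12.2 ± 1.61 CPM (n = 4, SD; edgeR adjusted p = 0.00805). Pus1, which modifies nuclear and mitochondrial tRNA and was the most abundant of the group per transcript length, went from 53.5 ± 3.68 to 39.3 ± 1.87 CPM (adjusted p = 0.0117). Pus3, which acts on the anticodon stem and loop, went from 32.1 ± 2.38 to 23.7 ± 3.01 CPM (adjusted p = 0.0385), a call lost on dropping any of 7 libraries (adjusted p = 0.118 when pEtn replicate 4 was dropped). Pusl1 stood at 14.2 ± 2.03 and 10.7 ± 1.36 CPM, with an adjusted p of 0.109, 0.0251 with the replicate block, 0.0835 with the block once replicates 3 and 4 were summed, and 0.0475 on dropping RPMI replicate 2. Pus10, which in human cells also has a role in microRNA processing, had a log2 fold change of -0.04 (adjusted p = 0.769).

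Among 26 genes for tRNA methyltransferases and their partners, 9 fell (34.6%, against 7.56% of all genes tested) and 0 rose. The other 17 did not pass the test. Nsun2 (ENSMUSG00000021595), the main cytosine methyltransferase of tRNA, was by far the most abundant member, with a mean of 163 TPM over the 8 libraries. It stood at 418, 411, 496 and 499 CPM in RPMI and at 232, 269, 278 and 265 CPM with pEtn. The lowest RPMI library was well above the highest pEtn library. The fall was 1.75-fold (log2 -0.80, SE 0.10, edgeR adjusted p = 0.00171).

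Trmt61a (ENSMUSG00000060950), the catalytic subunit of the enzyme that methylates an adenosine in the T loop of tRNA, stood at 19.7, 16.8, 18.1 and 15.2 CPM in RPMI and at 8.79, 8.02, 7.33 and 6.23 CPM with pEtn. Within each medium replicate 1 was the highest and replicate 4 the lowest, and the media did not overlap. The fall was 2.30-fold (log2 -1.20, SE 0.14, edgeR adjusted p = 0.00144). Its non-catalytic partner Trmt6 stood at 85.5 ± 3.65 and 71.3 ± 4.97 CPM (SD, n = 4), a log2 fold change of -0.26 with an adjusted p of 0.0762, 0.0225 with the replicate block and 0.0710 with the block once replicates 3 and 4 were summed. The ratio of Trmt61a to Trmt6 counts, which no scaling between libraries alters, was 0.169 to 0.240 in RPMI and 0.0864 to 0.137 with pEtn, without overlap. That difference in the ratio was given no test.

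Mettl1 (ENSMUSG00000006732), which makes methylguanosine in the variable loop of tRNA, stood at 20.5, 16.4, 25.5 and 28.4 CPM in RPMI and at 10.2, 11.3, 14.1 and 13.4 CPM with pEtn. In both media replicates 3 and 4 were the higher ones, and the media did not overlap. The fall was 1.85-fold (log2 -0.89, SE 0.19, edgeR adjusted p = 0.0140). Wdr4, the partner that holds the tRNA, is not among the genes taken by name and fell 1.70-fold (adjusted p = 0.00697), and the ratio of Mettl1 to Wdr4 overlapped between the media, at 0.458 to 0.587 and 0.398 to 0.531.

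Further methyltransferase genes fell less. Trmt10a, whose product methylates a guanosine of the tRNA core, went from 21.2 ± 3.87 to 13.2 ± 0.903 CPM (n = 4, SD; edgeR adjusted p = 0.0137). Trmt1, which makes dimethylguanosine, went from 57.6 ± 5.90 to 37.9 ± 5.91 CPM (adjusted p = 0.0172), and dropping RPMI replicate 3 ended the call (adjusted p = 0.0568). Thumpd1, the tRNA-binding adaptor of the acetyltransferase Nat10, went from 152 ± 11.01 to 109.7 ± 6.30 CPM (adjusted p = 0.00933). Mettl2, which methylates cytosine in the anticodon loop, was 1.35-fold lower, Trmt10c, the tRNA-binding subunit of mitochondrial RNase P, 1.34-fold and Trmt11, a guanosine methyltransferase, 1.31-fold lower (adjusted p = 0.0304, 0.0321 and 0.0323). These 3 calls were lost on dropping any of 5, 6 and 6 libraries, and the adjusted p reached 0.0924 when RPMI replicate 4 was dropped for Mettl2, 0.101 when RPMI replicate 3 was dropped for Trmt10c and 0.103 when pEtn replicate 3 was dropped for Trmt11.

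Trmt112, the small activator that Trmt11, Thumpd3, Mettl5 and other methyltransferases share, was among the most abundant members at 91.2 TPM and stood at 45.0 ± 2.19 and 41.0 ± 2.01 CPM (n = 4, SD; edgeR adjusted p = 0.348). Thumpd3, a guanosine methyltransferase of tRNA, stood at 66.2 ± 8.52 and 64.8 ± 5.04 CPM (adjusted p = 0.885). Trmt5, which methylates the guanosine next to the anticodon, stood at 20.6 ± 1.07 and 16.8 ± 1.20 CPM (adjusted p = 0.0933, 0.0364 with the block and 0.0783 with the block once replicates 3 and 4 were summed). Trmt1l, a paralogue of Trmt1, had 29.9, 31.0, 17.0 and 16.4 CPM in RPMI and 33.4, 33.3, 23.3 and 23.5 CPM with pEtn, the opposite direction. It differed more between replicate numbers than between media (adjusted p = 0.518, 0.0442 with the block and 0.164 with the block once replicates 3 and 4 were summed). The other 12 tested genes of the group, among them Ftsj1, which methylates riboses of the anticodon loop, and the mitochondrial enzymes Nsun3, Trmt2b and Trmt61b, had log2 fold changes of -0.42 to 0.45 and adjusted p of 0.123 or more, and 0 of them was called with the block.

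**Figure D3:**
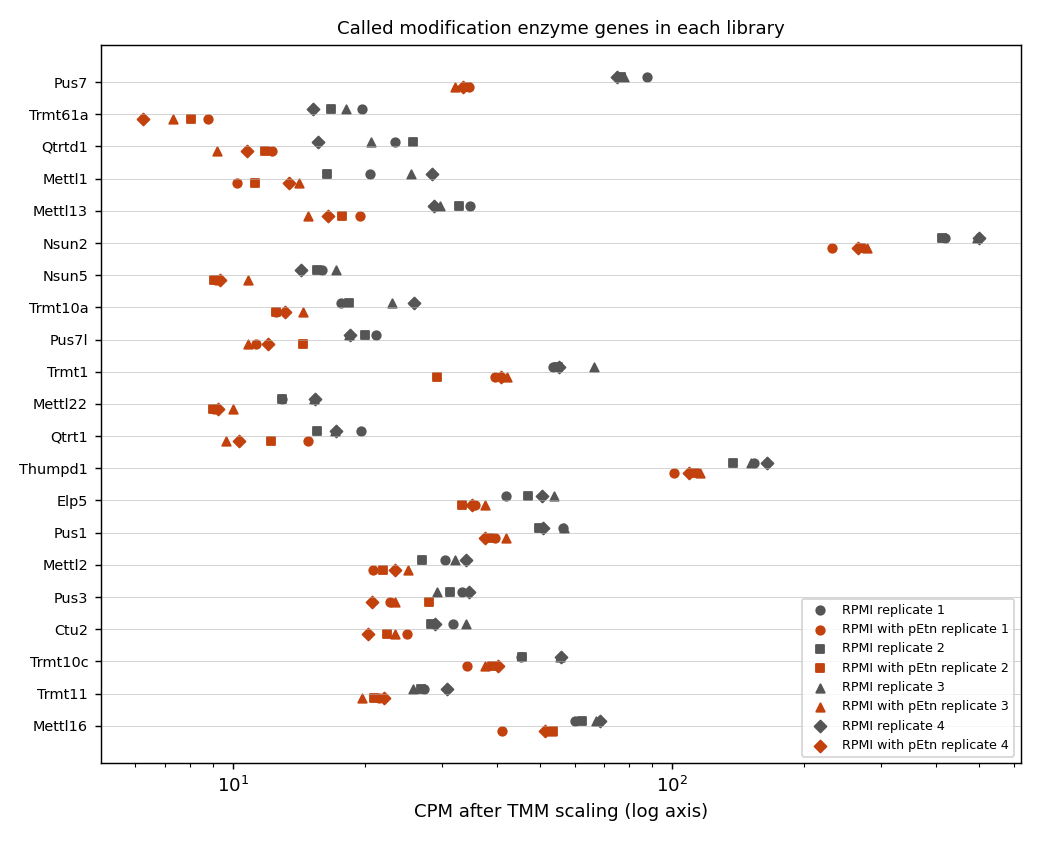
Level of the 21 called members in each of the 8 libraries (x axis, CPM after TMM scaling, log axis), grey for RPMI and orange for RPMI with pEtn, with 1 symbol per replicate number. In each of the 21 rows the 4 orange points lie to the left of the 4 grey ones, from Pus7 with the largest fall to Mettl16 with the smallest.

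Elongator and the thiolation enzymes act in turn on the wobble uridine of tRNA. Elongator adds a carboxymethyl group, and the Ctu1 and Ctu2 complex replaces an oxygen by sulphur. Of 7 members, 2 fell (28.6%, against 7.56% of all genes tested) and 0 rose. Elp5, of the accessory subcomplex of Elongator, went from 48.4 ± 5.17 to 35.4 ± 1.69 CPM (n = 4, SD; edgeR adjusted p = 0.0193). Dropping any of 3 libraries ended this call (adjusted p up to 0.0650, on dropping RPMI replicate 3). Ctu2 went from 30.7 ± 2.64 to 22.8 ± 1.92 CPM (adjusted p = 0.0298), a call that dropping any of 6 libraries ended (up to 0.0997, on dropping pEtn replicate 4). Its partner Ctu1, the catalytic subunit, stood at 8.36 ± 0.939 and 5.75 ± 1.11 CPM (adjusted p = 0.0713, 0.0124 with the replicate block and 0.0382 without pEtn replicate 1). With the block once replicates 3 and 4 were summed, its adjusted p was 0.0427.

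The subunits of Elongator did not show 1 common difference. Elp2, a scaffold subunit and the most abundant of them at 97.7 TPM, stood at 116 ± 8.76 and 92.6 ± 6.71 CPM (n = 4, SD; edgeR adjusted p = 0.0506, 0.0138 with the block, 0.0548 with the block once replicates 3 and 4 were summed, and 0.0265 without RPMI replicate 2). Elp3, the catalytic subunit, stood at 46.0 ± 4.47 and 44.3 ± 5.21 CPM (adjusted p = 0.800), Elp4 at 13.5 ± 2.72 and 13.1 ± 1.04 CPM (0.895) and Elp6 at 10.7 ± 2.75 and 10.2 ± 0.827 CPM (0.838). The direction of Elp3, Elp4 and Elp6 was reversed in at least 1 leave-one-out fit, and differences between subunits were not tested.

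**Figure D4:**
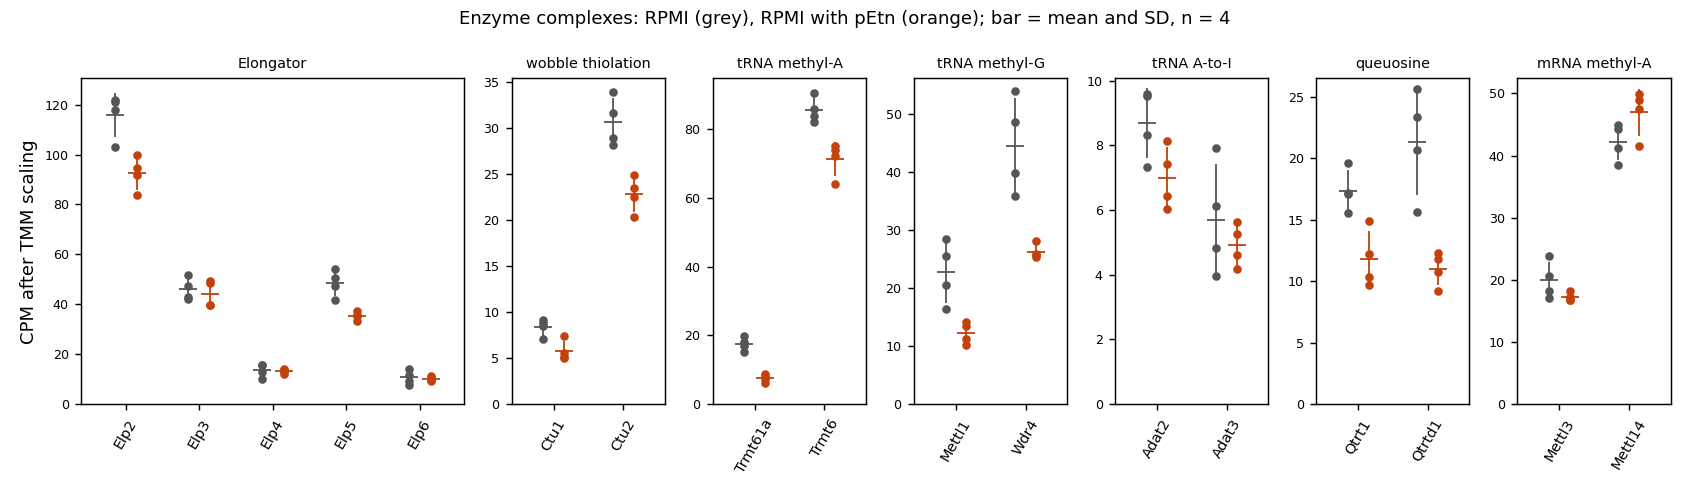
Level of subunits of 7 enzyme complexes in each library (y axis, CPM after TMM scaling, from 0), grey for RPMI and orange for RPMI with pEtn, with mean and SD, n = 4. Trmt61a, Mettl1, Wdr4, Elp5, Ctu2, Qtrt1 and Qtrtd1 are separated between the media and were called, Elp2 and Trmt6 are separated and were not called, and the other subunits overlap between the media.

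Of 5 genes for deaminases and for the exchange that puts queuosine into tRNA, 2 fell and 0 rose (40%, against 7.56% of all genes tested lower). Both encode the guanine transglycosylase, which swaps the wobble guanine for queuine taken up from food and gut bacteria. Qtrtd1 (ENSMUSG00000022704), now named Qtrt2 and the non-catalytic subunit, stood at 23.4, 25.7, 20.6 and 15.6 CPM in RPMI and 12.3, 11.8, 9.19 and 10.8 CPM with pEtn. RPMI replicate 4 was the lowest of its medium and still above the highest pEtn library. The fall was 1.94-fold (log2 -0.95, SE 0.17, edgeR adjusted p = 0.00709). The catalytic subunit Qtrt1 went from 17.4 ± 1.67 to 11.8 ± 2.32 CPM (SD, n = 4, adjusted p = 0.0426), a call that dropping any of 6 libraries ended (up to 0.120, on dropping pEtn replicate 4).

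Adat1, which deaminates the adenosine beside the anticodon of alanine tRNA, stood at 7.95, 6.83, 3.42 and 3.90 CPM in RPMI and 3.20, 3.39, 2.83 and 2.17 CPM with pEtn. The media did not overlap, but RPMI replicates 3 and 4 lay close to the pEtn libraries. Its edgeR adjusted p was 0.0710, 0.00960 with the block and 0.0132 with the block once replicates 3 and 4 were summed. Adat2 and Adat3, which together make wobble inosine, stood at 8.70 ± 1.09 and 7.01 ± 0.948 CPM and at 5.70 ± 1.73 and 4.92 ± 0.655 CPM (SD, n = 4, adjusted p = 0.234 and 0.596).

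Of 5 members that act on ribosomal RNA or the mitochondrial ribosome, Nsun5 fell (20%, against 7.56% of all genes tested). Nsun5 (ENSMUSG00000000916), which methylates a cytosine of the large subunit rRNA, stood at 15.96, 15.5, 17.2 and 14.3 CPM in RPMI and 9.14, 9.07, 10.8 and 9.37 CPM with pEtn. In both media replicate 3 was the highest, and the media did not overlap. The fall was 1.64-fold (log2 -0.71, SE 0.12, edgeR adjusted p = 0.00546). Mettl5, the adenosine methyltransferase of the small subunit rRNA, stood at 10.4 ± 1.04 and 7.96 ± 0.905 CPM (SD, n = 4, adjusted p = 0.108, 0.0237 with the block and 0.0786 with the block once replicates 3 and 4 were summed). The mitochondrial genes Nsun4, Mettl15 and Mettl17 had log2 fold changes of -0.24 to 0.10 (adjusted p of 0.355 or more).

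Of the 5 enzymes of mRNA and snRNA, Mettl16, which methylates U6 snRNA and the mRNA of a methionine adenosyltransferase, went from 64.6 ± 3.98 to 49.8 ± 5.997 CPM (n = 4, SD; edgeR adjusted p = 0.0491). Dropping any of the 8 libraries ended that call (up to 0.128, on dropping RPMI replicate 3), and pEtn replicate 1, at 40.9 CPM, stood apart from the other pEtn libraries. Mettl3 and Mettl14, which form the writer of methyladenosine in mRNA, stood at 19.9 ± 2.97 and 17.2 ± 0.720 CPM and at 42.2 ± 3.01 and 46.9 ± 3.76 CPM (adjusted p = 0.305 and 0.343). Their ratio, Mettl3 over Mettl14, was 0.409 to 0.529 in RPMI and 0.342 to 0.402 with pEtn, without overlap, and was given no test. The ratios of Qtrtd1 to Qtrt1, Ctu1 to Ctu2 and Adat2 to Adat3 overlapped between the media. Mettl4 and Thumpd2 had log2 fold changes of -0.26 and -0.29 (adjusted p = 0.338 and 0.418).

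Among 7 tested genes for protein methyltransferases 2 fell (28.6%, against 7.56% of all genes tested) and 0 rose. Mettl13 (ENSMUSG00000026694), which methylates the translation elongation factor eEF1A, stood at 34.7, 32.7, 29.6 and 28.7 CPM in RPMI and 19.5, 17.7, 14.8 and 16.5 CPM with pEtn. The media did not overlap. The fall was 1.83-fold (log2 -0.87, SE 0.12, edgeR adjusted p = 0.00228). Mettl22, known in human cells to methylate a protein that binds DNA and RNA, went from 14.2 ± 1.40 to 9.32 ± 0.456 CPM (SD, n = 4, adjusted p = 0.0116). Mettl9, a histidine methyltransferase and the most abundant of the group at 91.0 TPM, stood at 62.3 ± 8.67 and 64.5 ± 2.09 CPM (adjusted p = 0.808). Mettl10, Mettl18, Mettl20 and Mettl21a had log2 fold changes of -0.14 to 0.19 (adjusted p of 0.557 or more).

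The 3 remaining tested members have no substrate assigned here. Mettl7a1, a membrane protein of the endoplasmic reticulum and lipid droplets, had the highest log2 fold change of the 64 (0.57, SE 0.24). It stood at 9.39, 5.31, 4.96 and 6.89 CPM in RPMI and 12.3, 7.07, 9.64 and 10.4 CPM with pEtn, higher in 4 of 4 replicate numbers, although the media overlapped. Its edgeR adjusted p was 0.155, 0.0113 with the block and 0.0487 without RPMI replicate 1 (log2 0.78). With the block once replicates 3 and 4 were summed, it was 0.0410. Mettl23 stood at 23.6 ± 1.42 and 23.5 ± 3.45 CPM (SD, n = 4, adjusted p = 0.9801), and Mettl25 had a log2 fold change of -0.30 (adjusted p = 0.207). The 7 members that were not tested, Mettl21b, Mettl21c, Mettl24, Mettl4-ps1, Mettl5os, Mettl7a3 and Nsun7, had 1 to 36 counts over the 8 libraries together. The 5 further rows named Mettl7a2, Mettl7b, Mettl11b, Mettl21e and Trmt112-ps2 were at 0 in all 8 libraries.

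Levels per transcript length spanned a wide range. The mean TPM over the 8 libraries ran from 1.65 for Mettl8 to 163 for Nsun2, followed by Thumpd1 at 129, Elp2 at 97.7, Trmt112 at 91.2 and Mettl9 at 91.0. The median was 19.8 TPM over the 21 called members and 10.2 TPM over the tested members without a call. Whether this difference in level bears on which genes were called was not tested.

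Modification genes that the name rule does not take were read from 2 further lists in the same test. Of 25 other rRNA modification genes 16 fell and 0 rose (64%), with a median log2 fold change of -0.63, and of 41 other tRNA modification genes 6 fell and 0 rose (14.6%), with a median of -0.18. Over all genes tested 7.56% fell and 12.8% were called in either direction. The called share of the tRNA list is close to the latter and above the share that fell. Negative log2 fold changes made up 80.5% of the tRNA list, 92% of the rRNA list and 47.8% of all genes tested. Nop2, a cytosine methyltransferase of the large subunit rRNA, stood at 166, 178, 176 and 161 CPM in RPMI and 82.4, 87.8, 83.0 and 79.8 CPM with pEtn, a fall of 2.05-fold (edgeR adjusted p = 0.000261). Nat10, the acetyltransferase of tRNA and rRNA that Thumpd1 serves, fell 1.68-fold (adjusted p = 0.00144).

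Genes of both classes of small nucleolar particle were among those that fell. Dkc1, the pseudouridine synthase of the box H/ACA particle, fell 1.68-fold and its assembly factor Naf1 1.81-fold (edgeR adjusted p = 0.00250 and 0.00160). In the box C/D particle, Nop56 fell 1.64-fold (adjusted p = 0.00243) and the methyltransferase Fbl 1.57-fold, from 240.1 ± 32.3 to 153 ± 29.8 CPM (SD, n = 4, adjusted p = 0.0225). Dropping any of 4 libraries ended the call of Fbl (up to 0.0712, on dropping RPMI replicate 3). Ftsj3, a ribose methyltransferase, fell 1.54-fold (adjusted p = 0.00378). Emg1 stood at 143 ± 28.3 and 109 ± 8.24 CPM (adjusted p = 0.103, 0.0128 with the block, 0.0655 with the block once replicates 3 and 4 were summed, and 0.0275 without RPMI replicate 2), and Alkbh8, which completes the wobble side chain that Elongator starts, at 25.4 ± 2.21 and 23.9 ± 2.37 CPM (adjusted p = 0.672).

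The 250 bases before the start sites of the members were searched for 2 motifs, in RefSeq promoters of build GRCm38.p6, which is not the build of the counts. Of the 71 members 56 had a promoter there. A gene with several promoters was counted if any of them held the motif. The E-box CACGTG is bound by basic helix-loop-helix factors and is the same on both strands. It was present in 6 of the 56 members (10.7%), in 10.1% of tested genes and in 6.86% of all genes. Split by call, it was present in 4 of 18 members that fell (22.2%) and in 2 of 36 tested members without a call (5.56%). The ETS core CCGGAAG, read on both strands, was present in 12 of the 56 (21.4%), 3 of the 18 (16.7%) and 9 of the 36 (25.0%). It was present in 17.0% of tested genes and 7.83% of all genes. The 2 motifs cannot overlap, and these counts are a description of small sets. The sequences below are the 250 bases upstream of the 3 members that fell and have an E-box in a single annotated promoter, with the E-box in capitals. Trmt10a, the remaining member that fell and has an E-box, has several annotated promoters, and not all of them hold it.
Pus3, chr9:35558310-35558559, plus strand: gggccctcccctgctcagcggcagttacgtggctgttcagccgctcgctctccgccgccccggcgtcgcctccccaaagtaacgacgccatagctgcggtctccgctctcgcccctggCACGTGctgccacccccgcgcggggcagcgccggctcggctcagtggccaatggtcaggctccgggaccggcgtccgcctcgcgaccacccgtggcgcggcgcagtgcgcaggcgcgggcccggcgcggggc
Qtrt1, chr9:21411587-21411836, plus strand: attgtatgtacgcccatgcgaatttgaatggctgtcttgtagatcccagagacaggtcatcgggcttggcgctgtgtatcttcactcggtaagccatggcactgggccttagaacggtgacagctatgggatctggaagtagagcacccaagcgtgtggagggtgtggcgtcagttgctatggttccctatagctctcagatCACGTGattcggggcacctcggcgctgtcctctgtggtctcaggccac
Mettl13, chr1:162548346-162548595, minus strand: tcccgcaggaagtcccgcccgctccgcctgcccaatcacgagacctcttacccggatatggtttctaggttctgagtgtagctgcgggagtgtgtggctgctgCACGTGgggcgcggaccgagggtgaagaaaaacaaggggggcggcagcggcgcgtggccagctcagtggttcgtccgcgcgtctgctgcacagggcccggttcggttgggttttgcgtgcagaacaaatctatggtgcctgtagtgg
The E-box starts 132 bases before the start site of Pus3, 48 before that of Qtrt1 and 147 before that of Mettl13. Pus3 and Qtrt1 fell 1.35- and 1.48-fold and Mettl13 1.83-fold, while Pus7, Trmt61a and Nsun2, which fell 2.36-, 2.30- and 1.75-fold, had no E-box in the bases searched.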

How the data were processed

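The labels' protocols describe SmartSeq cDNA amplified over 15 cycles for each of the 8 libraries. The build named is GRCm39, per the submitters' processing notes. Aligner, counter, annotation and strand setting: not given in the sources used here. Reads of paralogues, pseudogenes, antisense and overlapping genes (Mettl5 and Mettl5os, the Mettl7a genes, Trmt112 and its copies) may therefore be shared. The deposited table gives whole-number counts for 45232 genes, used for the main tests. It also holds TPM deposited by the authors, used to compare levels between genes and in 1 alternative, RPKM deposited by the authors, not used, and a signal named CPM by the authors, not used. The main test was that of edgeR 4.0.16, run in R 4.3.3 (filterByExpr, TMM, robust quasi-likelihood F test, Benjamini-Hochberg adjustment over 11862 genes, called at an adjusted p under 0.05). The scripts were tested on simulated data of 11862 genes, with 100 changed by log2 0.5 and 100 by log2 1.0. The main test recovered 5% and 62% of them. A member without a call may thus still differ. SE come from the F statistic. CPM are scaled by TMM, and differences within a replicate number are log2 of CPM + 0.1. The labels describe no molecular identifiers, so precision from depth covers counting error only.

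Same-numbered libraries correlated at 0.44 to 0.57 in their deviations from group means, above the 0.1 required, and different numbers at -0.47 to 0.41, so the numbers meet the rule for pairing, although no label explains them. The main test has no block, and values with the replicate block are given where they change a call. The chi-square per gene between replicates 3 and 4 was 11.2 in RPMI and 5.04 with pEtn, against 51.1 to 107 in other pairs. Replicates 3 and 4 differ by more than counting noise, and both were kept. That does not show whether they are separate cultures, so n = 4 counts libraries. The members and lists were chosen with earlier results of these data known. Named with values are the called members, those whose call differs with the block, the most abundant of each group, subunits of complexes and, of other genes, the 8 called with the smallest p and 7 set names. One of these other genes is not reported here. The other members are given by ranges. Alternatives were RLE factors, no scaling, 2 filters, DESeq2 1.42.0, limma 3.58.1 on log2(TPM + 1), the block, summed replicates and left-out libraries, and, added after seeing the data, replicate pairs 1 and 2 or 3 and 4 alone. Promoter sequences are from RefSeq.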

Additional observations from a re-analysis of the deposited data

Results flagged for a closer look

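In 4 groups of 4 libraries 1 library lay far from the other 3, with a gap beyond the critical value of Dixon's test. Chance alone gives this in about 1 of 20 groups, and 106 groups were looked at. Mettl16 was at 40.9 CPM in pEtn replicate 1 against 51.4 to 53.5 CPM in the other pEtn libraries. Nsun5 was at 10.8 CPM in pEtn replicate 3 against 9.07 to 9.37 CPM. Trmt1 was at 66.3 CPM in RPMI replicate 3 against 53.6 to 55.2 CPM, the library without which its call was lost. Ftsj3 was at 163 CPM in RPMI replicate 2 against 197 to 203 CPM.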

How the results depend on the processing

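Alternatives changed the number of calls more than the direction. RLE factors, no scaling, either filter, DESeq2 and limma on TPM gave 18 to 26 members lower and 0 higher. These fits called 7.56% to 18.1% of all genes, and DESeq2 called 965 genes higher over the table. With the replicate block 3830 genes were called (1871 higher and 1959 lower), and 2 members were higher. With replicates 3 and 4 summed, 325 genes (79 higher and 246 lower), 6 members and 6 of the other modification genes were called, 6 members lower. With that sum and the replicate block, 2329 genes (1044 higher) were called, and 23 members were lower and 1 higher. That fit called 19.4% of genes and kept the 21 member calls of the main test. Chosen after seeing the data, replicates 1 and 2 alone gave 32 genes (10 higher and 22 lower), 1 member (lower), 0 other modification genes and a member median of -0.34, and replicates 3 and 4 alone gave 5675 genes (2761 higher and 2914 lower), 35 members (4 higher) and 36 other modification genes. Leaving out 1 library gave 796 to 1638 genes, 250 to 688 higher and 542 to 950 lower, 12 to 21 members lower, 0 to 1 higher, 12 to 21 members called, and 13 to 21 other modification genes. The cause was not tested.

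Some log2 fold changes near 0 changed sign. Mettl23 was 0.0102 without scaling, 0.19 with replicates 1 and 2, 0.0616 with the sum, 0.0518 with the sum and block, and -0.0878 to 0.0722 with 1 library left out. Mettl9 was -0.0909 with replicates 3 and 4, and -0.0196 to 0.131 with 1 library left out. Elp4 was 0.10 with replicates 1 and 2, 0.00591 with the sum, 0.0228 with the sum and block, and -0.166 to 0.0400 with 1 library left out. Elp6 was 0.138 with replicates 1 and 2, 0.0176 with the sum and block, and -0.211 to 0.0837 with 1 library left out. Thumpd3 was 0.0760 with replicates 3 and 4, and -0.111 to 0.0283 with 1 library left out. Elp3 was -0.109 to 0.00502 with 1 library left out. Members with few counts are measured with the least precision, and 7 could not be tested.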
